A study of Mus musculus with 4 samples.

Results

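Mature astrocyte function genes are 38 genes whose products carry out the working tasks of a differentiated astrocyte, among them glutamine synthesis, water and ion transport, receptor signalling and secretion. They were matched by exact symbol, and all 38 were among the 25393 genes listed for RNA-seq of cultured mouse astrocytes. All 38 also passed the low-value filter, a mean of at least 1 normalized count over the 4 libraries, together with 22094 genes in all. The list was drawn up from the genes' known functions and used no value measured here, although earlier results of these data were known when it was drawn up.

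Astrocytes take up glutamate and potassium released by neurons, convert glutamate to glutamine, move water at the vessel wall and secrete lipoproteins and matrix proteins. During development they arise from radial glia, and genes of this kind come on as the cells leave the cell cycle and mature. In culture with serum, astrocytes of newborn mice keep part of this programme and can also take on a dividing, less differentiated state. Tet1, the gene targeted in the study, encodes an enzyme that oxidises 5-methylcytosine to 5-hydroxymethylcytosine in DNA.

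Astrocytes were grown from the cortex and hippocampus of C57BL/6 pups at postnatal day 1 that were either wild type (WT) or tet1-/-, a constitutive knockout (KO) in every cell of the animal, and received no treatment. Each isolation pooled 2 mice, and the cells grew for about 7 days in 1 flask, were shaken to detach loosely attached cells and were collected 24 h later. There were 2 libraries labelled WT and 2 labelled Tet1 KO, and no label says whether the 2 came from separate cultures. The p-values therefore measure only the spread between these samples, which for WT may not cover that between separate cultures. Recovered reads on genes came to 18749610 and 22673555 for WT replicates 1 and 2, and to 20702980 and 22403163 for Tet1 KO replicates 1 and 2. Levels are given as normalized counts, counts of reads over 1 size factor for each library, which compare libraries but not genes of different length. The detection floor was set at 3 reads, worth 3.20, 2.76, 3.21 and 2.70 normalized counts in the same order, and this floor covers counting error only.

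Tet1 (ENSMUSG00000047146, chr10:62804570-62908996 of GRCm38, minus strand, as the files place it, like all gene positions here) gave 266 and 121 normalized counts in WT replicates 1 and 2, 173 in Tet1 KO replicate 1 and 463 in Tet1 KO replicate 2. The highest value was therefore in a library labelled KO, and the labels overlapped. The limma log2 fold change was 0.66 (SE 0.65, adjusted p = 0.691). A count over the whole gene does not separate transcripts with the targeted exons from those without them. The groups are called libraries labelled Tet1 KO for this reason, and every direction given below rests on the label.

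Libraries with the same label stood apart from each other. Over the tested genes, the median chi-square for recovered reads was 6.48 within WT and 19.7 within the Tet1 KO label, and sampling noise alone gives 0.455. Xist, the RNA that coats the inactive X chromosome in female cells, gave 8.54 and 0.92 normalized counts in WT replicates 1 and 2, 2896 in Tet1 KO replicate 1 and 13367 in Tet1 KO replicate 2. The Y-linked genes Ddx3y, Kdm5d, Uty and Eif2s3y were at 0 in Tet1 KO replicate 1, which allows at most 3.21 normalized counts, and had 117 to 314 in Tet1 KO replicate 2 and 178 to 1484 in WT. These sex-linked RNAs differed between the labels and within the label Tet1 KO, and their part in the results below was not tested. With Y-linked RNA at 0 in Tet1 KO replicate 1 but not in replicate 2, these were not repeat libraries of 1 RNA sample. Each summary of the 38 genes is given for both labels and for each library labelled Tet1 KO on its own.

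The labelled cell type was checked against its markers. Among the 38 genes Clu had the highest level per length, 1425 ± 79.7 FPKM (reads per kilobase of gene, scaled to the reads on genes of the library) in WT and 365 ± 341 in the libraries labelled Tet1 KO (SD, n = 2 each), and it ranked 21 among all listed genes by the mean over the 4 libraries. Mlc1 ranked 51, Glul 84 and Atp1b2 279. Aldh1l1, a folate enzyme widely used to mark astrocytes, had 58.0 ± 8.07 FPKM in WT and 35.9 ± 12.1 in the libraries labelled Tet1 KO (SD, n = 2 each). At the other end, Etnppl, an enzyme that breaks down phosphoethanolamine, had 3.20, 1.84, 0 and 1.80 normalized counts in WT replicates 1 and 2 and Tet1 KO replicates 1 and 2. Agt, the angiotensin precursor, had 1.07, 12, 37.5 and 0 in the same order. Etnppl was at or under the floor of 3 reads in each library, and Agt was under it in WT replicate 1 and Tet1 KO replicate 2, so their differences were not measurable or rested on few reads.

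Summed over the 38 genes, the level was similar in 3 libraries and low in the remaining library. The sum was 290196 and 289683 normalized counts in the WT libraries, 262493 in Tet1 KO replicate 1 and 68369.7 in Tet1 KO replicate 2. As a share of all reads on genes this was 1.45% and 1.39% in WT, 1.18% in Tet1 KO replicate 1 and 0.339% in Tet1 KO replicate 2. Clu alone gave 32.4% and 36.6% of these reads in WT, 17.6% in Tet1 KO replicate 1 and 12.6% in Tet1 KO replicate 2. Without Clu, the reads on the remaining 37 genes numbered 183804, 199607, 202101 and 66284 in the same order of libraries. In bulk cultures, fewer mature astrocytes and less of this RNA in each cell cannot be told apart.

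**Figure D1:**
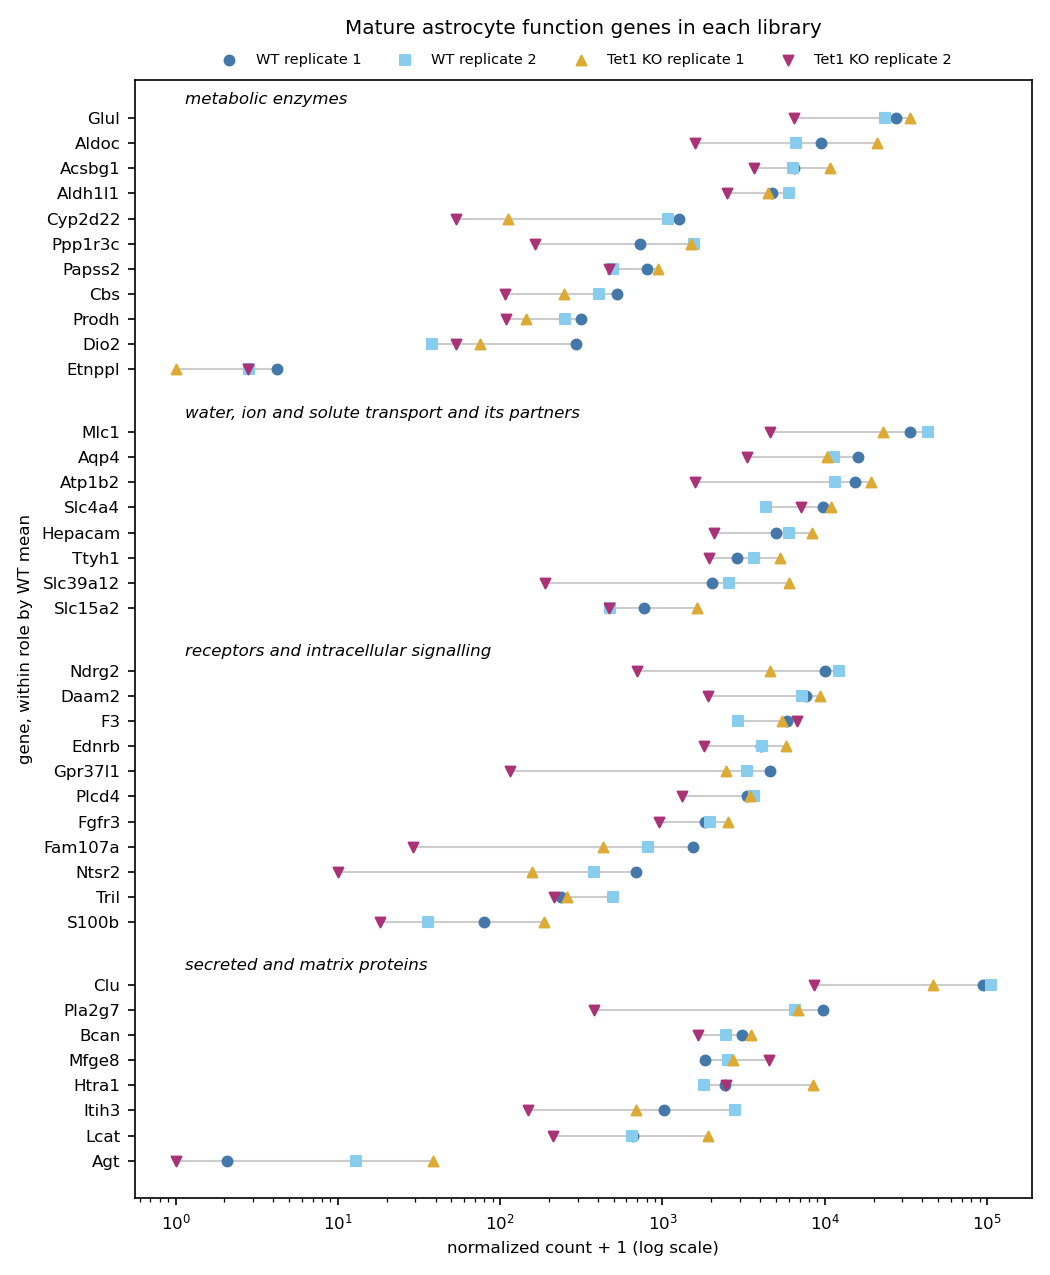
Levels of the 38 genes in each library, by role and, within a role, by WT mean. The x axis is the normalized count + 1 on a log scale and each symbol is 1 library. The symbols of Tet1 KO replicate 2 stand farthest left for 32 of the 38 genes, while those of Tet1 KO replicate 1 stand farthest right for 18.

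The comparison between labels asks which astrocyte function genes differ in cells labelled as lacking Tet1. It was fitted with limma over all 22094 tested genes on log2(normalized count + 1), which understates fold changes where counts are low. None of the 38 genes reached an adjusted p under 0.05, and 0 of 22094 genes did (0%), although 3032 genes had an unadjusted p under 0.05, 2028 of them lower and 1004 higher (1535 and 1368 after quantile normalization). At that unadjusted threshold 8 of the 38 genes were lower in the libraries labelled Tet1 KO, against 9.18% of all tested genes, and 0 were higher, against 4.54%. The count was 2 by eBayes without a variance trend, against 9.70% of all genes, and 4 in edgeR, against 8.14%. It was 1 without WT replicate 1 (3.90% of all genes) and 1 without WT replicate 2 (4.06%), fits in which the lone WT library is assumed to vary as much as the libraries labelled Tet1 KO. DESeq2 on the recovered reads called 1 of the 38 genes lower and 0 higher at an adjusted p under 0.05, where it called 3.63% of all genes lower and 1.29% higher, and edgeR called 0 of 22094 genes with 2733 at an unadjusted p under 0.05. Both libraries labelled Tet1 KO were below both WT libraries for 13 of the 38 genes, Etnppl near the floor included, against 25.4% of all genes, and above both for 2, Mfge8 and Htra1, against 22.5%. With 2 libraries against 2, the smallest p that an exact two-sided permutation test of 1 gene allows is 0.333.

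The limma log2 fold change was negative for 30 of the 38 genes, against 11857 of all 22094 tested genes. In edgeR and in DESeq2 it was negative for 25 of the 38. The limma median was -0.72, beside -0.07 for all tested genes. That median joins libraries that differed widely. Against the WT mean, the median difference of the 38 genes was 0.34 on the log2 scale in Tet1 KO replicate 1 and -1.60 in Tet1 KO replicate 2. Tet1 KO replicate 1 was more than 2-fold below the WT mean for 7 of the 38 genes, against 24.7% of all genes, and more than 2-fold above it for 7, against 9.43%. Tet1 KO replicate 2 was more than 2-fold below the WT mean for 25, against 22.9%. Fitted with limma without Tet1 KO replicate 1, 25 of the 38 genes were lower at an unadjusted p under 0.05, against 13.7% of all genes. Fitted without Tet1 KO replicate 2, 3 were lower, against 9.28%, and 6 were higher, against 4.10%, and in both fits the lone library is assumed to vary as much as the WT libraries.

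As a median over the 38 genes, the difference within the Tet1 KO label was larger than that between the labels. The former sets 1 library against 1, while the latter sets means of 2 libraries, which vary less. It was not larger for every gene, with Cyp2d22, Cbs and Prodh among the exceptions. The difference, Tet1 KO replicate 2 minus replicate 1 in log2(normalized count + 1), had a median of -1.78 over the 38 genes and 0.06 over all tested genes. The same difference between the WT libraries had a median of -0.22 over the 38 genes and 0.04 over all tested genes. Tet1 KO replicate 2 was below replicate 1 for 35 of the 38 genes, against 10112 of 22094 tested genes. It was below by more than 2-fold for 30, against 16.6% of all genes. Among genes with a mean of at least 100 normalized counts, 28 of 35 were more than 2-fold lower in Tet1 KO replicate 2 than in replicate 1, against 13.5%. In the opposite direction, 1 of the 38 genes, Etnppl, was more than 2-fold above, against 21.7% of all genes, and both of its values lay under the floor. The WT libraries differed by more than 2-fold for 8 of the 38 genes, against 23.7%. Tet1 KO replicate 2 was the lowest of the 4 libraries for 32 of the 38 genes, against 29.4%, and Tet1 KO replicate 1 was the highest for 18, against 23.0%. With 1 library on each side these differences have no replicate check.

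**Figure D2:**
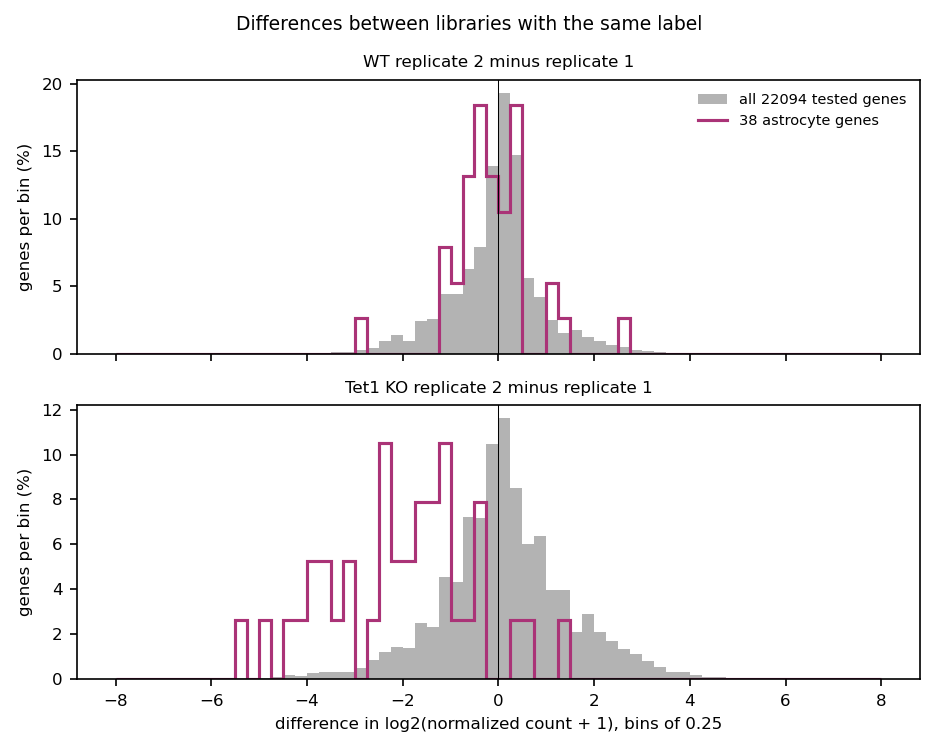
Differences between libraries with the same label, in log2(normalized count + 1), as the percent of genes in bins of 0.25. Grey bars are all 22094 tested genes and the line is the 38 astrocyte genes. The 38 genes lie around zero between the WT libraries (median -0.22) and to the left of zero between the libraries labelled Tet1 KO (median -1.78).

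Among the 11 metabolic enzymes the median log2 fold change was -0.78, and 3 were lower at an unadjusted p under 0.05 (9.18% of all genes). Glul (ENSMUSG00000026473, chr1:153899944-153909723), glutamine synthetase, had 27333 and 23487 normalized counts in WT replicates 1 and 2, 33657 in Tet1 KO replicate 1 and 6476 in Tet1 KO replicate 2. Tet1 KO replicate 1 was thus above both WT libraries and Tet1 KO replicate 2 was well below them. The limma log2 fold change between labels was -0.78 (SE 0.79, adjusted p = 0.698), and Tet1 KO replicate 1 had 5.20 times the level of replicate 2. Aldoc (ENSMUSG00000017390, chr11:78322968-78327781), the brain form of aldolase in glycolysis, had 9482 and 6648 under the WT label and 20909 and 1594 under the Tet1 KO label, in the same order. Its values in the libraries labelled Tet1 KO lay on either side of WT, the highest and the lowest of the 4, and differed from each other by -3.71 on the log2 scale. Acsbg1 (ENSMUSG00000032281, chr9:54604877-54661870), which activates long-chain fatty acids, had 6501 and 6361 under the WT label and 10795 and 3675 under the Tet1 KO label. It showed the same order with a smaller spread, and its log2 fold change between labels was -0.03 (adjusted p = 0.988 from limma).

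Other enzymes had lower values in both libraries labelled Tet1 KO than in either WT library. Cyp2d22 (ENSMUSG00000061740, chr15:82370527-82380260), a cytochrome P450, had 1268 and 1084 normalized counts in WT replicates 1 and 2, 110.2 in Tet1 KO replicate 1 and 52.3 in Tet1 KO replicate 2. Both libraries labelled Tet1 KO lay far below WT, and the WT mean was 14.5 times the mean of the libraries labelled Tet1 KO. This was the largest difference between labels among the 38 genes, with a limma log2 fold change of -3.93 (SE 0.47, unadjusted p = 0.000262, adjusted p = 0.101) and -3.86 (adjusted p = 7.87e-10) in DESeq2. It is the member that DESeq2 called, and its log2 fold change stayed between -4.46 and -3.40 when any 1 library was left out. Cbs (ENSMUSG00000024039, chr17:31612623-31637199), which makes cystathionine from homocysteine, had 523 and 404 under the WT label and 245 and 105 under the Tet1 KO label. Prodh (ENSMUSG00000003526, chr16:18060357-18090203), which starts the breakdown of proline, had 316 and 249 under the WT label and 142 and 107 under the Tet1 KO label. In both genes the labels did not overlap, with log2 fold changes of -1.51 for Cbs (unadjusted p = 0.0289, adjusted p = 0.316 from limma) and -1.18 for Prodh (unadjusted p = 0.0292, adjusted p = 0.317). Aldh1l1 also did not overlap between the labels, with 4725 and 5999 under the WT label and 4452 and 2490 under the Tet1 KO label, but its unadjusted p was 0.135.

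For the 8 transport genes the median log2 fold change was -0.75. At the unadjusted threshold of limma 0 of them were lower and 0 higher (9.18% and 4.54% of all genes). All 8 were lower in Tet1 KO replicate 2 than in replicate 1, against 10112 of 22094 tested genes. Of the 8, 6 had their highest value in Tet1 KO replicate 1, against 23.0% of all genes. Mlc1 (ENSMUSG00000035805, chr15:88955884-88979007), a membrane protein of astrocyte endfeet, had 33626 and 43061 normalized counts in WT replicates 1 and 2, 22859 in Tet1 KO replicate 1 and 4602 in Tet1 KO replicate 2. It was lower in both libraries labelled Tet1 KO than in WT, most in replicate 2, with a limma log2 fold change of -1.89 (SE 0.78, adjusted p = 0.377). Aqp4 (ENSMUSG00000024411), the water channel of astrocyte endfeet, had 16135 and 11461 under the WT label and 10259 and 3337 under the Tet1 KO label. Here Tet1 KO replicate 1 was just under WT replicate 2, so that the labels did not overlap, and the log2 fold change was -1.22 (adjusted p = 0.436 from limma). Atp1b2 (ENSMUSG00000041329, chr11:69599736-69605942), a beta subunit of the sodium pump, had 15370 and 11568 under the WT label and 19407 and 1585 under the Tet1 KO label. Slc39a12 (ENSMUSG00000036949, chr2:14388316-14494977), a zinc importer, had 2009 and 2582 under the WT label and 6024 and 187 under the Tet1 KO label. For both, Tet1 KO replicate 1 was the highest library and replicate 2 the lowest, and Slc39a12 differed 32.1-fold between them, the largest ratio among the 38 genes with reads above the floor in both. Hepacam, the adhesion partner that brings Mlc1 to cell junctions, had 5034 and 6048 under the WT label and 8335 and 2071 under the Tet1 KO label, with Tet1 KO replicate 1 again the highest and replicate 2 the lowest.

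The median log2 fold change of the 11 receptor and signalling genes was -0.70, and 3 were lower at an unadjusted p under 0.05 (9.18% of all genes). Gpr37l1 (ENSMUSG00000026424, chr1:135160234-135167681), an orphan receptor of glia, had 4579 and 3305 normalized counts in WT replicates 1 and 2, 2447 in Tet1 KO replicate 1 and 114 in Tet1 KO replicate 2. Both libraries labelled Tet1 KO were below WT, and replicate 2 was 21.5 times lower than replicate 1. The limma log2 fold change between labels was -2.88 (SE 1.38, adjusted p = 0.434). The 250 bases before its start in RefSeq (GRCm38.p6, chr1:135167682-135167931, minus strand) are shown as an example of a promoter of a gene low in Tet1 KO replicate 2, chosen after the values were seen, with CG dinucleotides, the usual site of 5-methylcytosine, in capitals.
Gpr37l1: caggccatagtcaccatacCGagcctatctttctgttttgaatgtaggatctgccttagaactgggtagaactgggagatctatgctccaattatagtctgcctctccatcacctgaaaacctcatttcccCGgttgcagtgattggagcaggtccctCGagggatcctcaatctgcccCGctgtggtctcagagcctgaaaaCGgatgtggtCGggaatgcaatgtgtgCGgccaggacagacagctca

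Ntsr2 (ENSMUSG00000020591, chr12:16653382-16660227), a neurotensin receptor of astrocytes, had 685 and 379 normalized counts in WT replicates 1 and 2, 156 in Tet1 KO replicate 1 and 9.01 in Tet1 KO replicate 2. Fam107a (ENSMUSG00000021750, chr14:8296274-8318023), an actin-associated protein of astrocytes and radial glia, had 1550 and 817 under the WT label and 428 and 27.9 under the Tet1 KO label. Ndrg2 (ENSMUSG00000004558, chr14:51905271-51914158), a cytosolic protein abundant in mature astrocytes, had 10024 and 12277 under the WT label and 4570 and 692 under the Tet1 KO label. In each of the 3 genes both libraries labelled Tet1 KO were below both WT libraries and replicate 2 was the lowest. The log2 fold changes were -3.69 for Ntsr2 (unadjusted p = 0.0331, adjusted p = 0.333 from limma), -3.34 for Fam107a (unadjusted p = 0.0419, adjusted p = 0.354) and -2.64 for Ndrg2 (unadjusted p = 0.0268, adjusted p = 0.314). F3 (ENSMUSG00000028128, chr3:121723537-121735048), tissue factor, which starts blood clotting, had 5849 and 2913 under the WT label and 5417 and 6764 under the Tet1 KO label. It was an exception among these genes, with Tet1 KO replicate 2 the highest library, and WT replicate 1 was more than 2-fold above WT replicate 2. S100b, a calcium-binding protein used as an astrocyte marker, had 79 and 34.9 under the WT label and 185 and 17.1 under the Tet1 KO label, so its libraries labelled Tet1 KO were the highest and the lowest of the 4.

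Across the 8 secreted and matrix genes the median log2 fold change was -0.13, and 2 were lower at an unadjusted p under 0.05 (9.18% of all genes). Clu (ENSMUSG00000022037, chr14:65968483-65981547), the lipoprotein-associated chaperone clusterin, had 94083 and 106131 normalized counts in WT replicates 1 and 2, 46166 in Tet1 KO replicate 1 and 8627 in Tet1 KO replicate 2. The WT libraries lay close together, Tet1 KO replicate 1 was below both, and replicate 2 was lower again. The limma log2 fold change was -2.32 (SE 0.82, unadjusted p = 0.0331, adjusted p = 0.333). Itih3 (ENSMUSG00000006522, chr14:30908572-30923760), which binds hyaluronan in the matrix, had 1016 and 2806 under the WT label and 684 and 148 under the Tet1 KO label, with a log2 fold change of -2.40 (unadjusted p = 0.0342, adjusted p = 0.337). The labels did not overlap for Itih3, but the WT libraries differed by 1.46 on the log2 scale. Pla2g7 (ENSMUSG00000023913, chr17:43568098-43612201), a lipoprotein-associated phospholipase, had 9700 and 6544 under the WT label and 6857 and 378 under the Tet1 KO label. Its value in Tet1 KO replicate 1 lay between those of WT, and replicate 2 was 18.2 times lower than replicate 1.

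The secreted group also held the 2 genes that were higher in both libraries labelled Tet1 KO than in both WT libraries. Htra1 (ENSMUSG00000006205, chr7:130936111-130985660), a secreted serine protease, had 2441 and 1798 under the WT label and 8440 and 2467 under the Tet1 KO label. Tet1 KO replicate 1 stood well above WT, and replicate 2 exceeded the higher WT library by a small margin. Its limma log2 fold change was 1.12 (SE 0.62, adjusted p = 0.478). Mfge8 (ENSMUSG00000030605, chr7:79133768-79149060), a secreted protein that tags dying cells for engulfment, had 1816 and 2536 under the WT label and 2734 and 4539 under the Tet1 KO label. Here Tet1 KO replicate 2 was the highest library, and the limma log2 fold change was 0.71 (SE 0.38, adjusted p = 0.466). Its 250 bases before the RefSeq start (GRCm38.p6, chr7:79149061-79149310, minus strand) are set beside those of Gpr37l1 because Mfge8 was above WT and Gpr37l1 far below WT in Tet1 KO replicate 2, a pair chosen after the values were seen, with CG again in capitals.
Mfge8: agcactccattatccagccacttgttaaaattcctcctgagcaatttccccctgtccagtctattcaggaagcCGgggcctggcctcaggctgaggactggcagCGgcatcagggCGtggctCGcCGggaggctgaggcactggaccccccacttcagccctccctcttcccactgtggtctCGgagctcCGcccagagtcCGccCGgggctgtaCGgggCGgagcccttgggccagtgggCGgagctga

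**Figure D3:**
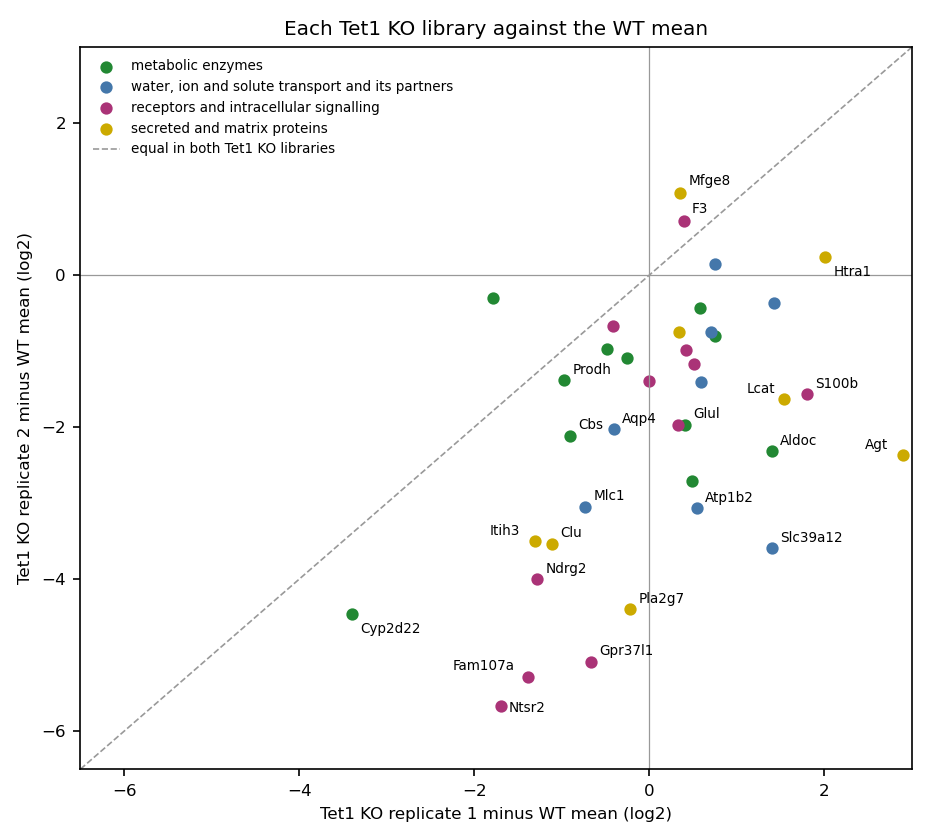
Each of the 38 genes by its difference from the WT mean in Tet1 KO replicate 1 (x axis) and in Tet1 KO replicate 2 (y axis), both in log2(normalized count + 1), coloured by role. Points on the dashed line would be equal in the libraries labelled Tet1 KO, and 35 of the 38 genes lie below it. Cyp2d22, Ntsr2 and Fam107a stand at the lower left, below WT in both, while Aldoc, Slc39a12 and Agt stand at the lower right, above WT in replicate 1 and below it in replicate 2.

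The promoter of Gpr37l1 shown above holds 7 CG dinucleotides in its 250 bases and that of Mfge8 holds 12. RefSeq windows of 300 bases, from 250 before to 50 after a start, matched 34 of the 38 genes with 45 windows, and Aqp4, Atp1b2, Clu and Cyp2d22 had none. The windows of the 38 genes held a median of 9 CG, with a range from 1 to 50, beside a median of 7 over all 32851 windows. Taking for each gene its window with the most CG, the median was 14.5 over the 34 genes and 20 over 13488 tested genes. Spearman's rho between that number and the difference of Tet1 KO replicate 2 from replicate 1 was 0.32 across the 34 genes, 0.03 across those 13488 and 0.11 across the 9025 of them with a mean of at least 100, a description across genes, which share libraries and are not independent. Against the log2 fold change between labels, rho was 0.19 across the 34 genes and 0.22 across the 13488.

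Of the motifs searched on both strands of these windows, TTCNNNGAA, the letters that STAT factors bind, stood in 13.3% of the windows of the 38 genes and 8.30% of all windows. TGCCAA, part of a nuclear factor I site, stood in 20% and 14.1%. The full palindromic nuclear factor I site, whose ends overlap it, stood in 0% and 0.0365%. The SOX-type letters ACAATG stood in 2.22% and 12.6%, and ACAAAG in 15.6% and 18.7%. TATAAA stood in 13.3% and 13.6%, and the E-box CACGTG in 6.67% and 7.15%. With 45 windows from 34 genes, 1 window is worth 2.22%, and a match is a description of letters.

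Outside the 20 genes given in full by rule stood 18 others, Aldh1l1, Etnppl, Hepacam, S100b and Mfge8 among them. Their log2 fold changes ranged from -1.11 to 0.71, with adjusted p from 0.466 to 0.990 from limma. Of the 18, 13 were negative, against 11857 of 22094 tested genes. Tet1 KO replicate 2 was the lowest library for 14 of the 18, against 29.4% of all genes. Ppp1r3c, which directs a phosphatase to glycogen, had 729.8 and 1567 under the WT label and 1497 and 163 under the Tet1 KO label. Lcat, which esterifies cholesterol on lipoproteins, had 659 and 645 under the WT label and 1900 and 210.0 under the Tet1 KO label, with Tet1 KO replicate 1 the highest library and replicate 2 the lowest. Daam2, a formin of the Wnt pathway, had 7663 and 7234 under the WT label and 9337 and 1898 under the Tet1 KO label, and Ednrb, the endothelin B receptor, had 4025 and 4107 under the WT label and 5797 and 1805 under the Tet1 KO label. The WT libraries lay close together for both genes, and the libraries labelled Tet1 KO lay on either side of them, as they did for the growth factor receptor gene Fgfr3, which had 1819 and 1965 under the WT label and 2529 and 957 under the Tet1 KO label.

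For Slc4a4, Dio2 and Tril the order of libraries was another. Slc4a4, a sodium bicarbonate cotransporter, had 9767 and 4335 under the WT label and 10969 and 7166 under the Tet1 KO label, with WT replicate 2 the lowest. Dio2, which activates thyroid hormone, had 290.2 and 36.8 under the WT label and 73.9 and 52.3 under the Tet1 KO label, so that WT replicate 1 alone was high. Tril, a coreceptor of Toll-like receptors, had 235 and 497 under the WT label and 256 and 214 under the Tet1 KO label, with WT replicate 2 alone high. Papss2, which makes the sulfate donor, Slc15a2, a peptide transporter, Ttyh1, a membrane protein, Plcd4, a phospholipase C, and Bcan, the proteoglycan brevican, were all lowest in Tet1 KO replicate 2 and, but for Plcd4, highest in replicate 1, with log2 fold changes from -0.70 to 0.53. In GENCODE M21, 24 of the 38 genes overlap no other gene, and 14 overlap an antisense gene, among them Prodh (Dgcr6), Htra1 (Fgfr2) and S100b (Dip2a). Aldh1l1 and Glul overlap a gene on their own strand as well, and since the use of strand in counting was not stated, reads of such pairs cannot be told apart.

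Other astrocyte genes, a list of 20 that holds none of the 38, were also low in Tet1 KO replicate 2. Their summed level was 369472 and 414961 normalized counts in WT, 491308 in Tet1 KO replicate 1 and 99939.4 in Tet1 KO replicate 2. Of the 20, 6 were lower and 0 higher at an unadjusted p under 0.05 in limma (9.18% and 4.54% of all genes), and Tet1 KO replicate 2 was the lowest library for 18 (29.4%). Unlike the 38 genes, the 20 had a median difference of Tet1 KO replicate 1 from the WT mean below 0, at -0.59 on the log2 scale. The gene with the most reads was Apoe, which carries lipid between brain cells, with 135734 and 164062 under the WT label and 125631 and 21341.5 under the Tet1 KO label. Gfap, the intermediate filament of astrocytes, had 58004 and 67297 under the WT label and 174853 and 9945 under the Tet1 KO label, the highest and the lowest of the 4. Cst3, a protease inhibitor, had 37244 and 25947 in WT against 78276 and 13870, and Id3, an inhibitor of basic helix-loop-helix factors, had 9216 and 14050 against 22705 and 6833.

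The summed level of radial glia and immature astrocyte genes was above WT in both libraries labelled Tet1 KO. Of the 12 genes, 6 were lower in Tet1 KO replicate 2 than in replicate 1, against 10112 of 22094 tested genes. The 12 listed had a summed level of 118855 and 161415 normalized counts in WT, 218438 in Tet1 KO replicate 1 and 236868 in replicate 2 (summed FPKM 2368 and 2331 in the last pair), and the most abundant was Vim, an intermediate filament. Of the 12, 4 were higher and 0 lower at an unadjusted p under 0.05 in limma (4.54% and 9.18% of all genes), and these were Nes, an intermediate filament of progenitors, Tnc, a matrix protein, and Top2a and Mki67 of dividing cells. Mki67 had 10.7 and 80.0 under the WT label and 203 and 1091 under the Tet1 KO label. Hmga2, a chromatin protein of fetal cells, had 1.07 and 6.44 in WT, 12.8 in Tet1 KO replicate 1 and 1163 in replicate 2. These levels moved with the low values of the 38 genes in Tet1 KO replicate 2, and their part in that difference was not tested.

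Markers of other cells were also read in each library. The 16 microglia genes summed to 2854 and 5378 normalized counts under the WT label and 1106 and 588 under the Tet1 KO label, with 13 of 16 lower at an unadjusted p under 0.05 in limma (9.18% of all genes). P2ry12, which marks microglia, had 6.4 and 4.6 under the WT label and 0 and 0.901 under the Tet1 KO label. The 8 ependymal genes summed to 7307 and 11054 under the WT label and 8495 and 1630 under the Tet1 KO label, with 4 of 8 lower (9.18%). Most of these sums came from Foxj1, with 6065 and 9871 under the WT label and 7787 and 1549 under the Tet1 KO label. Both libraries labelled Tet1 KO were below both WT libraries for 5 of the 8 (25.4% of all genes). Of 8 mural genes, the 7 listed summed to 5299 and 13331 under the WT label and 25777 and 52543 under the Tet1 KO label, where Acta2, smooth muscle actin, alone gave 1980 and 8903, and 22252 and 50185. Pdgfrb, another mural marker, had 2099 and 2239 under the WT label and 2242 and 999 under the Tet1 KO label, and Kcnj8 had 1.07, 6.44, 1.07 and 0. Of the 7, only Acta2 was highest in Tet1 KO replicate 2, and 3 (Rgs5, Cspg4 and Myh11) were below both WT libraries in both libraries labelled Tet1 KO (25.4% of all genes). The part of these cells in the levels of the 38 genes was not tested.

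The sums of the remaining lists were closer between Tet1 KO replicates 1 and 2 than that of the 38 genes. The 12 oligodendrocyte lineage genes summed to 11975 and 18813 under the WT label and 23195 and 11825 under the Tet1 KO label, led by Olig1, while Mog, a defining gene of myelin, had at most 7.36. The 11 neuron genes listed summed to 5463, 4890, 5140 and 5094 in the same order of libraries, with Map2 the most abundant and Snap25 at 0 in both WT libraries. The 10 neuron genes that were tested, without Snap25, went both ways. Both libraries labelled Tet1 KO were above both WT libraries for 6 of the 10 (22.5% of all genes) and below both for 2 (25.4%). The 9 meningeal fibroblast genes listed summed to 878, 2085, 2381 and 2101, led by Col1a2, and Slc6a13 was at 0 in both libraries labelled Tet1 KO. The 5 endothelial genes listed summed to 101, 190, 285 and 280, with Kdr the most abundant by the mean over libraries and Pecam1 at most 7.36. Between the libraries labelled Tet1 KO these sums joined opposite differences. Kdr had 248 in replicate 1 and 37.9 in replicate 2, and Flt1 had 22.5 and 213. The part of these lists in the differences of the 38 genes was not tested.

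**Figure D4:**
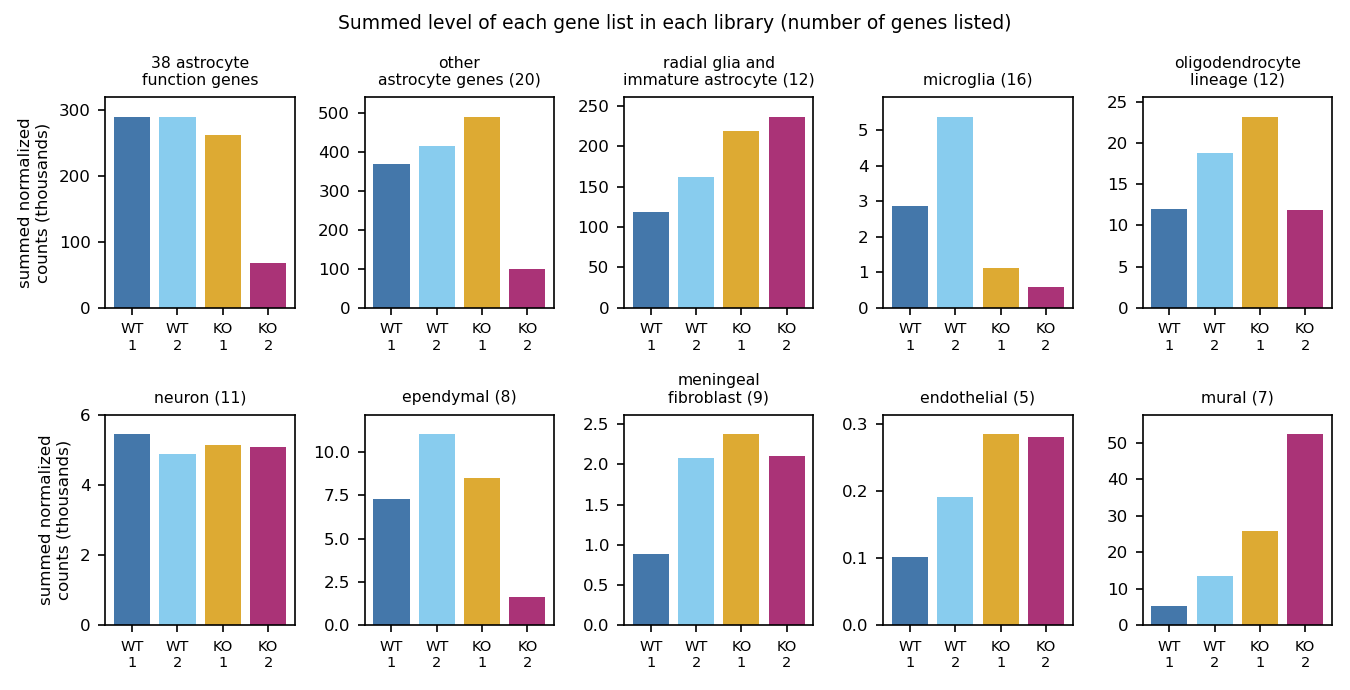
Summed normalized counts, scaled as the axis states, of the 38 genes and of 9 other marker lists in each library, with the number of genes listed in brackets and a separate y axis from 0 for each list. Bars are single libraries. The sums of the 38 genes and of the other astrocyte, microglia and ependymal genes were lowest in Tet1 KO replicate 2, and that of the oligodendrocyte lineage genes (11825) was close to WT replicate 1 (11975). The mural sum was highest in Tet1 KO replicate 2 through Acta2 alone.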

How the data were processed

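Paired-end Illumina reads were filtered and aligned to mm10 by the authors, and the aligner, counter and annotation are not given in the sources used here. For each gene, the authors deposited 1 signal value per library in a table named for FPKM. The values were 100% whole multiples (tolerance 0.01 reads) of what 1 read is worth, 0.901 to 1.07. They are therefore counts divided by a size factor, and whole reads were recovered from them. Means, fold changes and p-values of the authors' own comparison were also deposited and not used.

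WT and Tet1 KO were compared in R 4.3.3 by limma 3.58.1 (lmFit, eBayes with a trend) on log2(normalized count + 1). The two-sided fit took 22094 of 25393 genes, with Benjamini-Hochberg adjustment over all of them and no block. Recovered reads also went into edgeR 4.0.16 and DESeq2 1.42.0, and with the listed gene lengths and library totals they gave FPKM. Other pseudocounts, filters and scalings, a replicate block, and leaving out each library were tried.

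The 38 genes, their roles, the marker lists and the rule for naming genes were chosen with earlier results of these data known. Given in full were the 3 genes of each role with the highest level per length, those with an unadjusted p under 0.05, and the 1 of each role with the largest difference between the libraries labelled Tet1 KO. The study speaks of 3 biological repeats, and the labels used here give 2 per genotype.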

Additional observations from a re-analysis of the deposited data

How the results depend on the processing

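The count of the 38 genes lower at an unadjusted p under 0.05 was 8 in limma, 2 by eBayes without a trend (9.70% of all genes), 4 in edgeR (8.14%), 9 in DESeq2 (7.95%) and 1 to 25 when 1 library was left out, 1 without either WT library (3.90% and 4.06%), 3 without Tet1 KO replicate 2 (9.28%) and 25 without Tet1 KO replicate 1 (13.7%). The count higher was 0 in limma, 1 in DESeq2 (1018 of 22094 genes) and 0 to 6 when 1 library was left out, 6 of them without Tet1 KO replicate 2 (4.10% of all genes). Genes called at an adjusted p under 0.05 numbered 0 in every limma setting and in edgeR, and 1088 in DESeq2. The median log2 fold change of the 38 genes was -1.60 to 0.34 when 1 library was left out, -0.42 in edgeR and -0.38 in DESeq2. The median difference between the libraries labelled Tet1 KO was -1.69 after quantile normalization and -1.65 at equal sums, against -1.78. Quantile normalization moved the median of all genes from -0.07 to 0.06 and their unadjusted calls from 2028 lower and 1004 higher to 1535 lower and 1368 higher, with 8 of the 38 genes lower in both. Over the pseudocounts, filters and scalings tried, 6 to 9 of these genes were lower at an unadjusted p under 0.05 in limma, against 6.95% to 9.78% of all genes. Their median log2 fold change was -0.83 to -0.69.

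With replicate number as a block in limma, the median log2 fold change was -0.72, 11 of the 38 genes were lower at an unadjusted p under 0.05 (1821 of all genes, 8.24%) and 0 genes were called, with 2583 at that unadjusted p in either direction. The deviations of same-numbered libraries had a correlation of -0.08 across genes. Resting on 1 difference within each label, it cannot decide whether same-numbered libraries shared a preparation, and no label says so.

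Log2 fold changes between labels that turned sign in edgeR and DESeq2 were Aldoc 0.45 and 0.48, Acsbg1 0.14 and 0.17, Ttyh1 0.11 and 0.14, Slc39a12 0.41 and 0.44 and Lcat 0.66 and 0.69, and Agt was -0.95 with a pseudocount of 0.1. In limma, means of log2 values are compared, and in edgeR and DESeq2 mean counts. As ratios of the WT mean count to the mean under the Tet1 KO label, Aldoc gave 0.717 and Acsbg1 0.889. Ttyh1 gave 0.908, Slc39a12 0.739 and Lcat 0.618, so that the mean count was lower in WT for each. When 1 library was left out, those that turned sign had ranges of Glul -1.97 to 0.41, Aldoc -2.32 to 1.40, Acsbg1 -0.81 to 0.75, Ppp1r3c -2.71 to 0.49, Dio2 -2.21 to 0.74, Papss2 -0.43 to 0.58, Slc4a4 -0.14 to 1.03, Atp1b2 -3.07 to 0.54, Hepacam -1.41 to 0.60, Ttyh1 -0.75 to 0.70, Slc39a12 -3.60 to 1.40, Slc15a2 -0.36 to 1.43, Fgfr3 -0.98 to 0.42, Ednrb -1.17 to 0.51, S100b -1.56 to 1.80, Daam2 -1.97 to 0.33, Agt -2.37 to 2.89, Lcat -1.63 to 1.54 and Bcan -0.75 to 0.34. Depth was not the limit for most members, but the values of Etnppl and Agt rested on few reads.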
